A study of Sus scrofa with 20 samples.

Results

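Complement is the set of plasma proteins, receptors and regulators that marks microbes and damaged cells for removal, and 41 genes of this system and of related pattern-recognition proteins were read in RNA libraries of sorted pig cells. The genes were taken as a list of names, with no threshold on a measured value, by someone who had earlier results of these data in view. Of the 41 names, 35 had a row, each a single row among the 25764 genes of the table, and all 35 reached the minimum of 10 normalized counts in at least 2 libraries that was set for testing. The genes CFB, CD46, CD55, C3AR1, ITGAM and ITGAX were not analysed here because no row carried those names. The 20 libraries were 5 of porcine biliary tree stem cells (pBTSCs) of neonatal piglets and 15 of cells sorted from pig liver. The liver sorts comprise CD45-/EpCAM+ (4 libraries), CD45-/EpCAM- (2 libraries), CD45+ (5 libraries), CD31+ (2 libraries) and CD146+ (2 libraries). CD45 is the common leukocyte antigen, EpCAM an epithelial adhesion molecule, and CD31 and CD146 are surface molecules of endothelial cells. The study also lists CD146 among the antigens of stellate cell precursors. The labels name the gallbladder as the tissue of the pBTSCs, whereas the study's text also names the cystic duct and the common duct. The study defines BTSCs as CD45-/EpCAM+ cells of the biliary tree. It also describes keeping immunoselected stem/progenitor cells for hours in serum-free medium on low-attachment dishes. There they formed organoids together with early mesenchymal cells. Whether a given library was made after that step is not stated, and its part in the differences was not tested. The study lists 3 of the pBTSC piglets under an H2B-GFP line, in which a fusion of histone H2B with green fluorescent protein was placed at the ACTB (beta-actin) locus, and 2 as wild-type, and the pBTSC libraries are named here by line and animal number. The donor and age of each liver library are not given in the labels, and liver libraries are named here by their label numbers, S3 to S23. No treatment was applied to any group according to the labels, and nothing in them says whether libraries of 1 group came from different animals, so that p-values measure only the spread between these libraries.

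Complement is started along 3 routes that meet at C3. In the classical pathway the recognition molecule C1q, built of the chains C1QA, C1QB and C1QC, binds antibody on a surface and turns on the proteases C1r and C1s. In the lectin pathway mannose-binding lectin and collectins bind sugars and turn on the MASP proteases, and the alternative pathway amplifies C3 cleavage with factors B, D and properdin. Cleaved C5 then gathers C6, C7, C8 and C9 into a pore in the target membrane. Hepatocytes make most of the circulating complement proteins, whereas C1q is made mainly by macrophages, properdin by leukocytes, and factor D largely by fat cells. Fibroblasts and endothelial cells are also known to make some components, among them C1r, C1s, C3 and C7.

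The identity of the libraries was read from marker genes before the members were compared. Over 9 hepatocyte genes with a row, the sum of normalized counts ran from 26529 to 80104 in pBTSC libraries and from 1180440 to 3035990 in the 15 liver libraries, CD45+, CD31+ and CD146+ cells included. PTPRC, the gene of CD45, lay between 424 and 2687 in the 5 CD45+ libraries and between 450 and 3027 in the 4 CD45-/EpCAM+ libraries. In pBTSCs, which the study selects as CD45-, it lay between 534 and 2140. PTPRC thus did not set these sorts apart. EPCAM did run with its label between the CD45- sorts, at 1205 to 1779 in the 4 CD45-/EpCAM+ libraries against 1090 in S5 and 491 in S14. It lay between 1175 and 2232 in the CD45+ libraries and between 884 and 2075 in pBTSCs. PECAM1, the gene of CD31, stood at 25291 and 20102 in CD31+ libraries S16 and S21. It ran from 4803 to 28778 in the other liver sorts and from 28048 to 36576 in pBTSCs, so PECAM1 did not set its sort apart. MCAM, the gene of CD146, stood at 5226 and 4615 in CD146+ libraries S17 and S22. It ran from 1131 to 4751 in the other liver sorts and from 4331 to 7656 in pBTSCs. Across the 15576 genes tested, which are not independent replicates, the 4 liver libraries S16, S17, S18 and S19, which carry 4 different labels, correlated with each other at r = 0.994 to 0.995. Over deeply sequenced liver libraries, the 12 pairs within a run of numbers lay between 0.926 and 0.995 (median 0.994), and the 15 pairs that share a label across runs lay between 0.935 and 0.984 (median 0.953), so the ranges overlapped. The liver libraries are therefore described both by label and by run of numbers (S3 to S5, S8 and S9, S12 to S14, S16 to S19, and S21 to S23). The pBTSC libraries are S2, S7 and S11 (H2B-GFP animals 1, 2 and 3) and S15 and S20 (wild-type animals 1 and 2). Each of these numbers comes just before 1 of the runs. What sets the runs apart, or whether a run shares an animal, is not given in the labels. Depth was estimated from the lowest values: wild-type animal 1, S13 and S22 came to 1569350, 800493 and 456718 reads, and the other 17 libraries to between 21193200 and 77568300. An amount of 3 reads, taken as the smallest that can be told from 0, was worth 37.6 normalized counts in wild-type animal 1, 77.2 in S13 and 156 in S22, and 4.28 or less in the others, for counting error only.

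**Figure D1:**
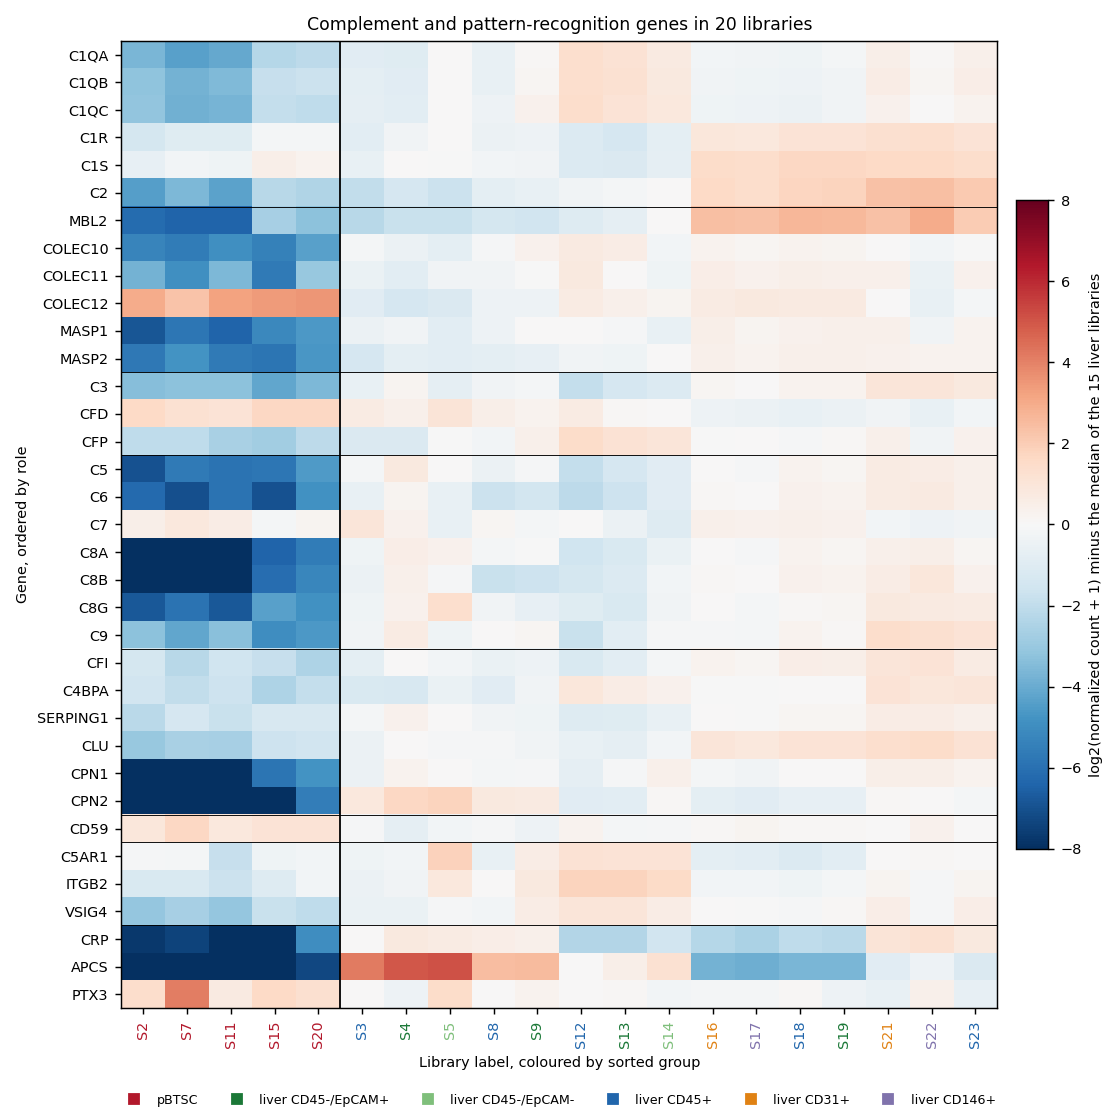
Level of the 35 genes (vertical axis, ordered by role, lines between roles) in the 20 libraries (horizontal axis, pBTSC libraries left of the line), as log2(normalized count + 1) minus the median of the 15 liver libraries. Most genes are blue in all 5 pBTSC libraries, COLEC12, CFD and CD59 are red in all 5, and among liver libraries MBL2, C2 and APCS change with the library number. The color scale ends at 8, and lower or higher differences have the end color.

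Most of the complement genes were lower in pBTSCs than in sorted liver cells. For 26 of the 35 genes all 5 pBTSC values were under all 15 liver values (all genes tested: 9.21%), and for 3 genes they were over them, namely COLEC12, CFD and CD59 (all genes tested: 11.9%). C1R, C1S, C7, C5AR1, ITGB2 and PTX3 overlapped. By limma on log2(normalized count + 1), with Benjamini-Hochberg adjustment over all genes and calls made at an adjusted p below 0.05 with a log2 fold change beyond 1 in size, 31 of the 35 differed from CD45-/EpCAM+ liver cells, 4 higher and 27 lower in pBTSCs, where 25.1% of all genes tested were called, 14.8% higher and 10.3% lower. The median log2 fold change was -3.31 over the 35 genes and 0.08 over all genes. Because these are bulk libraries, fewer cells of a type and less RNA per cell cannot be told apart.

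The same 5 pBTSC libraries enter the comparisons with the other liver sorts, which are therefore not independent of each other. Against CD45-/EpCAM- liver cells 31 were called, 3 higher and 28 lower (all genes: 36.6%, with 20% higher and 16.6% lower), with a median of -3.19 against 0.04 over all genes. This count rested on 2 liver libraries and was 26 without S5 and 27 without S14. Against CD45+ liver cells 31 were called, 4 higher and 27 lower (all genes: 20.6%, with 11% higher and 9.54% lower), with a median of -3.19 against 0.07. Against CD31+ and CD146+ cells as 1 set 31 were called, 3 higher and 28 lower (all genes: 21.4%, with 12.6% higher and 8.75% lower). The median was -3.44 against 0.14. That set is S16, S17, S21 and S22, which come from only 2 runs of numbers, and the fit counted them as separate replicates. Within library numbers S2 to S14 and within S15 to S23 taken separately, 27 of the 35 genes lay below the CD45-/EpCAM+ libraries of the same range in both (all genes: 17.4%), and PTX3, CFD, CD59 and COLEC12 lay above in both (all genes: 23.7%). In S15 to S23 the wild-type animals were set against S19 alone. There 6905 of all 15576 genes lay above it and 5259 below, so separation in that range says little. The range S2 to S14 holds the H2B-GFP animals and S15 to S23 the wild-type animals, so line and range cannot be told apart.

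**Figure D2:**
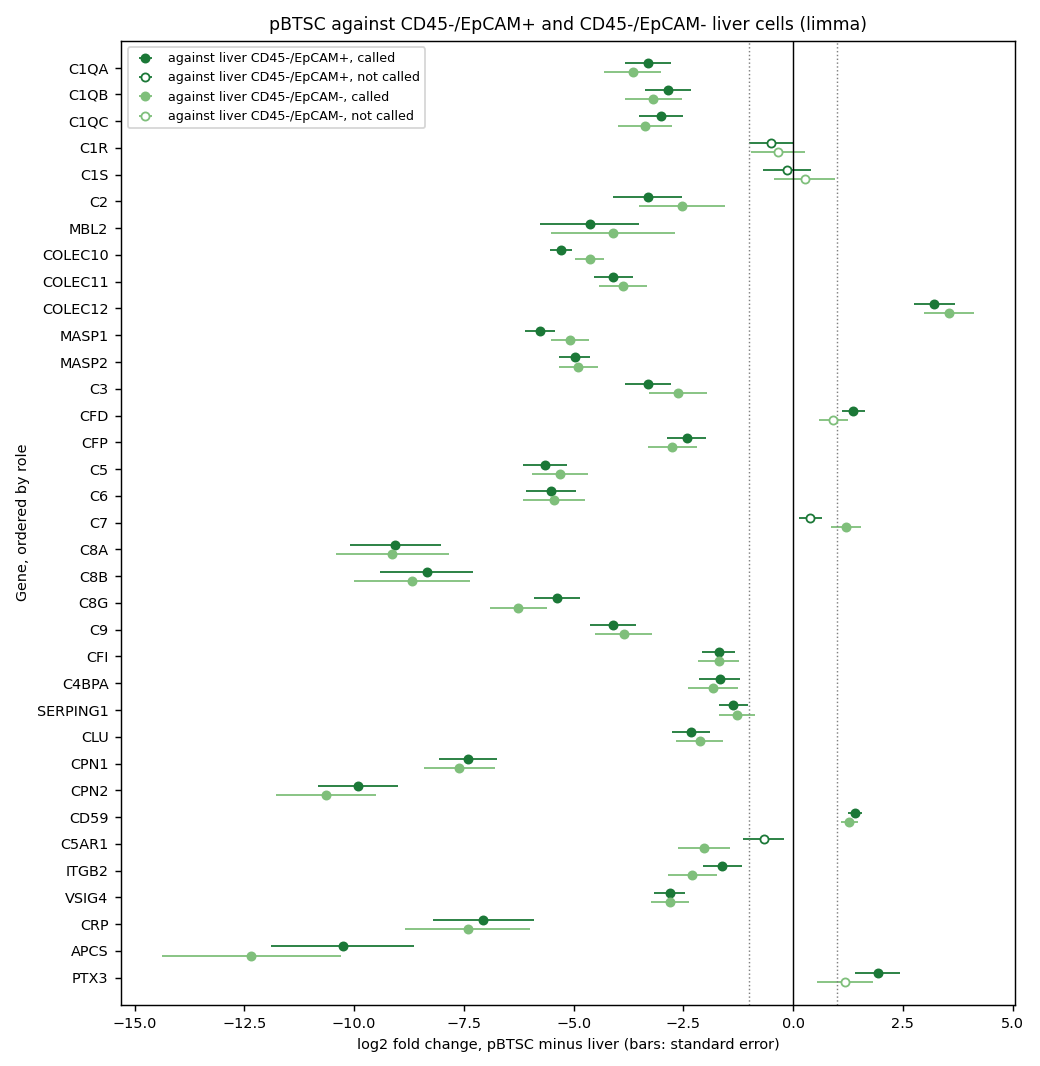
Log2 fold change (horizontal axis) of each gene (vertical axis, ordered by role) in 5 pBTSC libraries against 4 CD45-/EpCAM+ liver libraries (dark green) and 2 CD45-/EpCAM- liver libraries (light green), with the standard error of the limma fit as bars. Filled circles were called and open circles were not, and dotted lines mark a log2 fold change of 1 in either direction. APCS, CPN2, C8A and C8B lie farthest to the left, at -8.35 or lower, and COLEC12 farthest to the right, at 3.22 and 3.56.

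Among the genes of the C1 complex and the classical pathway, the recognition chains and C2 were lower in pBTSCs, while the 2 C1 proteases were not called against CD45- liver cells, except C1R in 1 alternative given with it. C1QA, the first listed of the 3 chains of C1q, had 1017, 635 and 734 normalized counts in H2B-GFP animals 1, 2 and 3 and stood at 2639 and 2918 in wild-type animals 1 and 2. In the CD45-/EpCAM+ liver libraries it stood at 6398 in S4, 13708 in S9, 27663 in S13 and 11165 in S19. The groups did not overlap, and the wild-type animals lay nearer to the liver libraries than the H2B-GFP animals did. The log2 fold change was -3.31 (SE 0.53, adjusted p = 9.8e-05) for C1QA, -2.85 (SE 0.52, adjusted p = 0.00036) for C1QB and -3.01 (SE 0.50, adjusted p = 0.00014) for C1QC.

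C2, the protease that joins C4b in the classical and lectin C3 convertase, stood at 87.8, 150, 93.5, 389 and 349 in the pBTSC libraries, in the same order, and at 741, 1241, 1671 and 6245 in S4, S9, S13 and S19. All 5 pBTSC values lay below all 4 liver values, with a log2 fold change of -3.32 (SE 0.78, adjusted p = 0.0029), and S19 stood apart from the other 3 liver libraries. Against CD45-/EpCAM- liver cells the log2 fold change was -2.53 (SE 0.98, adjusted p = 0.040) and the call was lost when a single library was left out, with adjusted p = 0.0623 without S5, 0.305 without S14, and 0.0754, 0.0605 and 0.0746 without H2B-GFP animal 1, 2 or 3. It was also lost with no filter on low genes (adjusted p = 0.0509), with array weights (0.0549) and with libraries rescaled to the same total (0.0913).

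C1R and C1S, the genes of the protease pair that C1q turns on and that goes on to cleave C4 and C2, were the members of this role closest to the liver levels. C1R stood at 3810, 5220, 5267, 9092 and 9131 in the pBTSC libraries and at 8281, 7662, 4105 and 21780 in S4, S9, S13 and S19. C1S stood at 4932, 6756, 6271, 10913 and 9456 in the pBTSC libraries and at 7848, 6444, 3513 and 24382 in those liver libraries. For both genes the groups overlapped, with S13 among or below the pBTSC values and S19 above all of them. The log2 fold changes were -0.50 (SE 0.50, adjusted p = 0.45) for C1R and -0.14 (SE 0.55, adjusted p = 0.86) for C1S. The sign of the C1S value was not stable, at 0.39 without S19 and 0.00 without H2B-GFP animal 1. C1R was at -0.34 (SE 0.62, adjusted p = 0.67) against CD45-/EpCAM- cells, and it was called lower, at -1.07 (adjusted p = 0.0111), once the runs of library numbers were a covariate, a fit chosen after seeing the data.

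Against CD31+ and CD146+ liver cells, which all carry numbers from S16 to S22, C1R (-1.84, SE 0.50, adjusted p = 0.0094) and C1S (-1.61, SE 0.55, adjusted p = 0.034) were called lower in pBTSCs. With the range of library numbers in the fit, C1R was at -0.94 (adjusted p = 0.0191) and C1S at -0.64 (adjusted p = 0.161), neither of them a call, and with the runs they were at -0.93 (adjusted p = 0.0140) and -0.65 (adjusted p = 0.126), again no calls. The C1S call was also lost without any 1 of S16, S17, S21, S22 or the 3 H2B-GFP animals, at adjusted p from 0.0513 to 0.101, and with wild-type animal 1, S13 and S22 all left out (adjusted p = 0.0672). Within S2 to S14 the pBTSC minus CD45-/EpCAM+ difference was -0.44 for C1R and 0.08 for C1S, and within S15 to S23 it was -1.26 for both.

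All 6 genes of the lectin pathway differed between pBTSCs and CD45-/EpCAM+ liver cells, 5 lower and 1 higher. COLEC10, the gene of collectin liver 1, stood at 139, 112, 184, 127 and 268 in the pBTSC libraries and at 3986, 7030, 8212 and 6442 in S4, S9, S13 and S19. The groups lay far apart and each was narrow, and the log2 fold change of -5.29 (SE 0.26, adjusted p = 4.2e-10) had the smallest adjusted p of the 35 genes in this comparison. COLEC11, whose protein pairs with that of COLEC10 in plasma, was at 144, 66.1, 164, 38.3 and 250 in pBTSCs and from 1109 to 3442, with a median of 2024, in the 15 liver libraries (log2 fold change -4.09 against CD45-/EpCAM+ cells, SE 0.44, adjusted p = 1.5e-06).

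MASP1 and MASP2 encode the proteases that collectins and mannose-binding lectin carry. MASP1 stood at 20.8, 45.7, 28.7, 69.4 and 103 in the pBTSC libraries and at 2078, 2572, 2382 and 3350 in S4, S9, S13 and S19, a log2 fold change of -5.77 (SE 0.34, adjusted p = 3.7e-09). MASP2 was at -4.98 (SE 0.36, adjusted p = 2.7e-08), with pBTSC values from 50.2 to 116 and liver values from 1138 to 3863. Neither gene overlapped between pBTSCs and any liver library.

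MBL2, which encodes a mannose-binding lectin, was at 0.227, 0 and 0 normalized counts in the H2B-GFP animals, all under 3 reads, at 12.6 in wild-type animal 1, which is about 1 read there, and at 7.70 in wild-type animal 2. In CD45-/EpCAM+ liver cells it was at 24.1, 28.4, 51.4 and 529 in S4, S9, S13 and S19, the S13 value being under 3 reads. The log2 fold change of -4.63 (SE 1.13, adjusted p = 0.0036) therefore rests on values near 0 in pBTSCs and on liver values that span a wide range. Against CD45-/EpCAM- cells it was -4.10 (SE 1.41, adjusted p = 0.023), and the call was lost with 10 in place of 1 added to each value (-2.10, adjusted p = 0.111) and without S5 (adjusted p = 0.0609) or S14 (adjusted p = 0.176).

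COLEC12 was the member of the lectin group that ran the other way. It encodes a membrane collectin, a scavenger receptor known from vascular endothelium and stroma, and not a plasma protein. It stood at 1751, 1095 and 2101 in H2B-GFP animals 1, 2 and 3 and at 2413 and 2630 in wild-type animals 1 and 2, against 89.7, 174, 299 and 372 in S4, S9, S13 and S19. Every pBTSC value lay above every liver value, the highest of which was 392 in S17, with a log2 fold change of 3.22 (SE 0.46, adjusted p = 3.2e-05) against CD45-/EpCAM+ cells, 3.56 (SE 0.57, adjusted p = 9e-05) against CD45-/EpCAM- cells, 3.09 (SE 0.43, adjusted p = 2.9e-05) against CD45+ cells and 2.86 (SE 0.46, adjusted p = 0.00013) against CD31+ and CD146+ cells. The summed level of 6 stellate cell and fibroblast genes lay higher in pBTSCs, from 352710 to 1635850 against 29033 to 152120 in liver libraries. That of 7 endothelial genes lay from 76178 to 97714 against 22889 to 135157, but these genes did not move one way. Against CD45-/EpCAM+ cells VWF (2.39) and PECAM1 (1.29) were called higher in pBTSCs, and STAB2 (-7.13) and LYVE1 (-1.80) lower. KDR, TEK and CDH5 were not called. The part of these genes in the result was not tested.

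**Figure D3:**
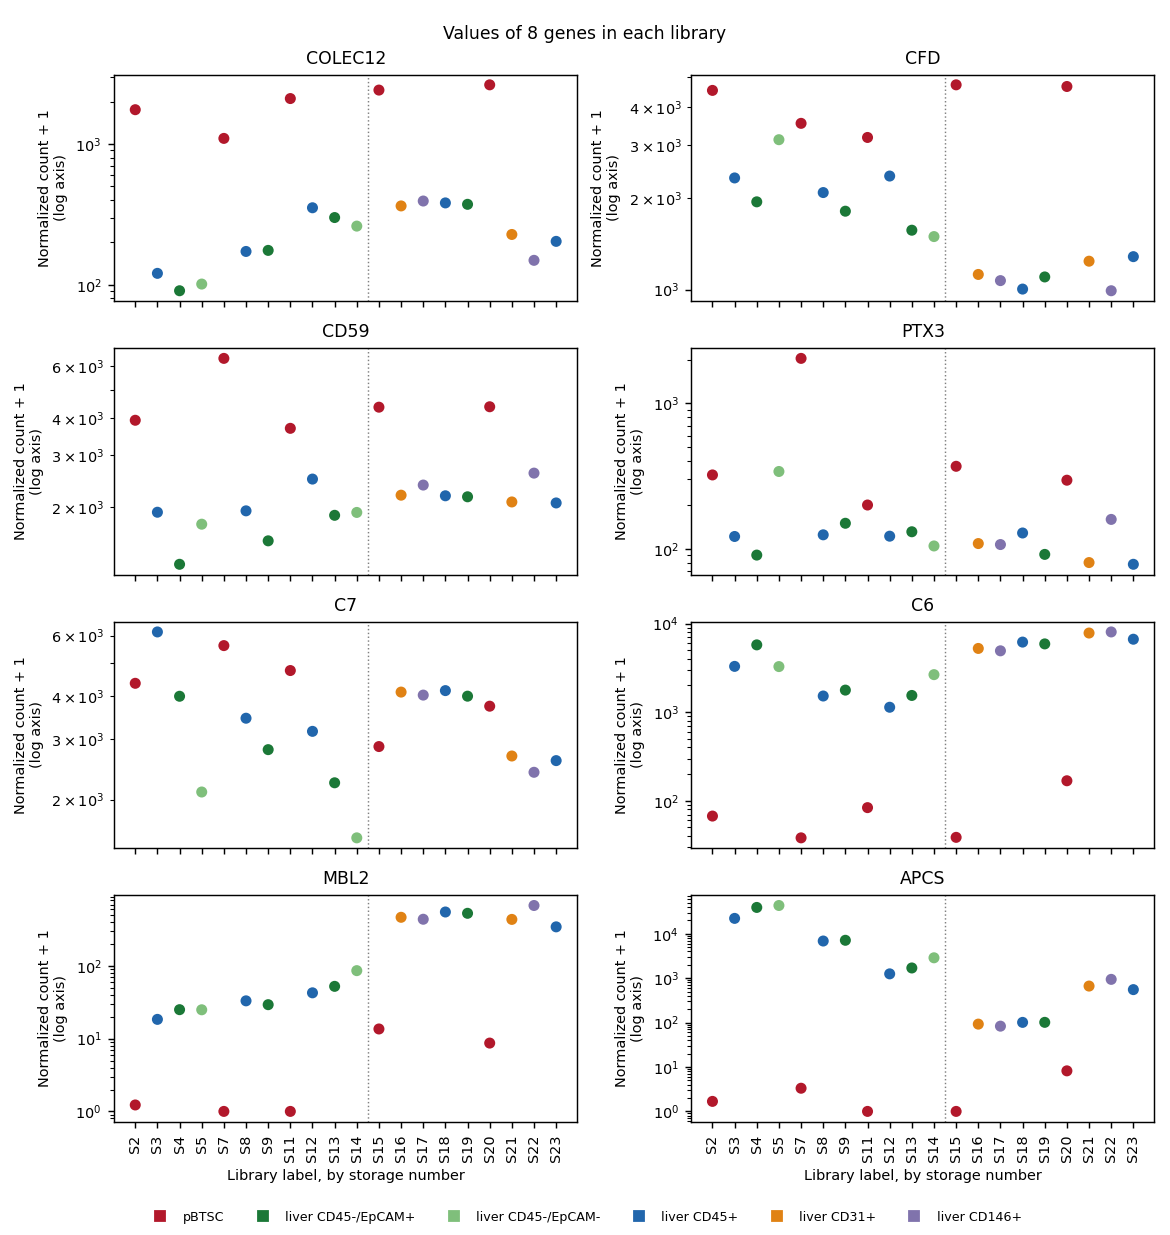
Normalized count + 1 (vertical axis, log scale) of 8 genes in each of the 20 libraries (horizontal axis, by library number, colored by sorted group), with a dotted line between S14 and S15. The 5 red pBTSC points lie above all liver points for COLEC12, CFD and CD59 and below all of them for C6, MBL2 and APCS, and they overlap with liver points for C7 and PTX3.

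C3 and the alternative pathway gave 2 genes lower and 1 higher. C3, the protein on which all routes converge, stood at 18643, 20679, 20485, 11126 and 16517 in the pBTSC libraries and at 235994, 179786, 79341 and 241456 in S4, S9, S13 and S19. The pBTSC values were thus well above the floor in every library while lying below all 15 liver libraries, whose lowest was 52606 in S12 (log2 fold change -3.31, SE 0.53, adjusted p = 0.00011). Within a library, the ratio of C3 to C5, which cannot be read as a ratio of molecules because lengths differ, was from 28.2 to 168 in pBTSCs and from 8.57 to 18.8 in liver libraries, so C5 was reduced more than C3.

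CFD, the gene of factor D, which cleaves factor B, stood at 4531, 3529, 3171, 4727 and 4667 in pBTSCs and at 1945, 1812, 1568 and 1100 in S4, S9, S13 and S19. All pBTSC values lay above all liver values, with a log2 fold change of 1.37 (SE 0.27, adjusted p = 0.00059), but S5, at 3117, came close to H2B-GFP animal 3. Against CD45-/EpCAM- cells CFD was at 0.92 (SE 0.33, adjusted p = 0.030), under the fold threshold, and was called without S5 (1.45, adjusted p = 0.0142) or without H2B-GFP animal 3 (1.01, adjusted p = 0.0254). It was also called with the range of library numbers (1.08, adjusted p = 0.0103) or the runs (1.10, adjusted p = 0.0095) as a covariate, and with libraries rescaled to the same total (1.39, adjusted p = 0.00145). CFP, the gene of properdin, which stabilizes the alternative C3 convertase, was at 405, 408, 273, 239 and 375 in pBTSCs and from 734 to 4481, with a median of 1638, in liver libraries (log2 fold change -2.42 against CD45-/EpCAM+ cells, SE 0.45, adjusted p = 4e-04).

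Of the 7 genes of the terminal pathway, 6 were lower in pBTSCs and C7 was not. C8A, C8B and C8G encode the 3 chains of C8, which inserts into the membrane ahead of C9. C8A stood at 2.95, 1.29 and 4.45 in the H2B-GFP animals and at 113 and 203 in wild-type animals 1 and 2, against 13815, 9315, 4061 and 10914 in S4, S9, S13 and S19. C8B stood at 3.96, 2.78 and 3.43 in the H2B-GFP animals and at 135 and 246 in the wild-type animals, against 11897, 2856, 4252 and 11179 in the liver libraries. Both genes were far higher in each wild-type animal than in any H2B-GFP animal, and still below every liver library. The log2 fold changes were -9.06 (SE 1.03, adjusted p = 3e-06) for C8A and -8.35 (SE 1.06, adjusted p = 1e-05) for C8B. Within S2 to S14 the C8A difference from CD45-/EpCAM+ cells was -11.10 and within S15 to S23 it was -6.16.

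C5, whose cleavage starts the pore, had a log2 fold change of -5.65 (SE 0.51, adjusted p = 2.3e-07), C6 of -5.52 (SE 0.57, adjusted p = 1.1e-06), C8G of -5.38 (SE 0.52, adjusted p = 5.1e-07) and C9, which forms the ring of the pore, of -4.11 (SE 0.53, adjusted p = 1.1e-05). C9 stood at 852, 451, 803, 256 and 336 in pBTSCs and from 2342 to 22060, with a median of 8183, in liver libraries. In contrast to the C8 chains, C9 was higher in each H2B-GFP animal than in either wild-type animal.

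C7 and C6 are near neighbors in the pig genome, with 1 protein-coding gene between them in the RefSeq annotation of Sscrofa11.1, and encode proteins of the same fold that bind one after the other. C7 stood at 4358, 5611 and 4747 in the H2B-GFP animals and at 2852 and 3738 in the wild-type animals, against 3995, 2793, 2236 and 3998 in S4, S9, S13 and S19. C6 stood at 66.2, 37.2, 82.7, 37.7 and 167 in the pBTSC libraries, against 5742, 1772, 1542 and 5888 in S4, S9, S13 and S19. The pBTSC values of C7 lay among those of the liver libraries, whose highest was 6149 in S3, while those of C6 lay below all of them. The ratio of C6 to C7 within a library was from 0.00663 to 0.0447 in pBTSCs and from 0.359 to 3.35 in liver libraries, with no overlap.

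C7 was not called against CD45-/EpCAM+ cells (0.39, SE 0.27, adjusted p = 0.26), CD45+ cells (0.16, SE 0.25, adjusted p = 0.68) or CD31+ and CD146+ cells (0.37, SE 0.27, adjusted p = 0.31). It was called higher in pBTSCs than in CD45-/EpCAM- cells, which stood at 2103 in S5 and 1546 in S14 (1.20, SE 0.33, adjusted p = 0.0066), a call lost without S14 (0.98, adjusted p = 0.0793). Within S2 to S14 the 3 H2B-GFP animals lay above the 3 CD45-/EpCAM+ libraries (difference 0.74), and within S15 to S23 both wild-type animals lay below S19 (difference -0.29). That the direction differed between the ranges was not tested.

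The 6 soluble regulators were all lower in pBTSCs than in CD45-/EpCAM+ cells, by very different amounts. CPN1 and CPN2 encode the catalytic and the regulatory subunit of carboxypeptidase N, which inactivates C3a and C5a. CPN2 stood at 0.454, 1.29 and 0 in the H2B-GFP animals, at 0 in wild-type animal 1 (floor of 3 reads 37.6) and at 47.9 in wild-type animal 2, against 7341, 3748, 1260 and 1446 in S4, S9, S13 and S19. CPN1 stood at 2.78, 2.55, 3.78, 28.8 and 61.7 in the pBTSC libraries, the wild-type animal 1 value being under 3 reads, against 2088, 1624, 1628 and 1720 in the liver libraries. The log2 fold changes were -9.91 (SE 0.91, adjusted p = 3.2e-07) for CPN2 and -7.41 (SE 0.65, adjusted p = 2.1e-07) for CPN1, and both depend on the added 1 because the pBTSC values are near 0.

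The other 4 soluble regulators were reduced less and were plainly present in all 5 pBTSC libraries. CLU, the gene of clusterin, which binds terminal complexes in plasma, stood at 1737, 2414, 2327, 4529 and 5039 in pBTSCs and from 8879 to 39447, with a median of 14407, in liver libraries (log2 fold change -2.32 against CD45-/EpCAM+ cells, SE 0.43, adjusted p = 0.00042). CFI, the gene of factor I, which cleaves C3b and C4b, was at -1.69 (SE 0.38, adjusted p = 0.0018), with pBTSC values from 2353 to 5002 and liver values from 5703 to 27627. SERPING1, the gene of the C1 inhibitor, was at -1.36 (SE 0.33, adjusted p = 0.0035), with pBTSC values from 7623 to 14040 and liver values from 16209 to 51451.

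C4BPA, the gene of the alpha chain of C4b-binding protein, stood at 3174, 2318, 2811, 1656 and 2396 in pBTSCs and at 3655, 7563, 13859 and 9134 in S4, S9, S13 and S19. The groups did not overlap, the nearest values being 3174 in H2B-GFP animal 1 and 3655 in S4, and the log2 fold change was -1.67 (SE 0.46, adjusted p = 0.0084). With the 3 libraries under 2000000 reads left out, C4BPA was at -1.25 (adjusted p = 0.0691) and no longer called. RefSeq lists 2 protein-coding genes of this symbol, which could share reads, so the value is uncertain. Against CD45-/EpCAM- cells several of these genes lost their call without a single liver library, namely CFI (adjusted p = 0.0532) and SERPING1 (adjusted p = 0.193) without S5 and C4BPA (adjusted p = 0.145) without S14, and C3 did so too (adjusted p = 0.0502 without S5). With the same total C4BPA (adjusted p = 0.0821) and SERPING1 (adjusted p = 0.0740) also lost it, as C4BPA did with array weights (adjusted p = 0.0533).

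CD59, the membrane regulator with a row, was higher in pBTSCs than in CD45- liver cells. Its protein is anchored in the plasma membrane and stops C9 from forming the pore. It stood at 3937, 6378 and 3697 in H2B-GFP animals 1, 2 and 3 and at 4360 and 4375 in wild-type animals 1 and 2, against 1281, 1538, 1877 and 2168 in S4, S9, S13 and S19. The lowest pBTSC value lay above the highest of all 15 liver libraries, 2608 in S22. The log2 fold change was 1.41 (SE 0.16, adjusted p = 3.5e-06) against CD45-/EpCAM+ cells, 1.28 (SE 0.20, adjusted p = 7.7e-05) against CD45-/EpCAM- cells and 1.08 (SE 0.15, adjusted p = 3.4e-05) against CD45+ cells. Without H2B-GFP animal 2 the last of these fell under the fold threshold, at 0.95 (adjusted p = 6.4e-05), and against CD31+ and CD146+ cells it was at 0.95 (SE 0.16, adjusted p = 0.00023) and not called.

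Of the 3 receptors with a row, VSIG4 was lower in pBTSCs in each comparison with liver cells, ITGB2 in 3 of 4, and C5AR1 in 1 of 4. VSIG4, the C3b and iC3b receptor of tissue macrophages, stood at 191, 263, 192, 478 and 413 in pBTSCs and at 1146, 2481, 3226 and 1808 in S4, S9, S13 and S19. The groups were separated, with a log2 fold change of -2.82 (SE 0.35, adjusted p = 9.1e-06). ITGB2, the beta-2 integrin subunit shared by complement receptors 3 and 4, stood at 642, 638, 460, 742 and 1309 in pBTSCs and at 1235, 2591, 5135 and 1380 in those liver libraries.

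For ITGB2 wild-type animal 2 lay above S4, so the groups overlapped, and the log2 fold change of -1.61 (SE 0.45, adjusted p = 0.0088) was -1.22 (adjusted p = 0.0618) without the 3 libraries under 2000000 reads. Against CD45+ cells it was at -1.32 (SE 0.42, adjusted p = 0.023), and at -0.94 (adjusted p = 0.0632) without S12, -1.17 (adjusted p = 0.0622) without H2B-GFP animal 3 and -1.07 (adjusted p = 0.0731) with libraries rescaled to the same total. The sum of 7 macrophage genes with a row was from 4023 to 8740 in pBTSCs and from 25536 to 109379 in liver libraries. It was lower together with C1q, CFP, ITGB2 and VSIG4, but its genes did not all move one way. Against CD45-/EpCAM+ cells CD163, MARCO, CD68, TIMD4, MRC1 and CSF1R were called lower in pBTSCs by limma, from -1.46 to -5.28. LYZ was called higher (2.03, adjusted p = 0.028). Against CD45-/EpCAM- cells LYZ was at -1.26 and not called. The part of these genes in the results was not tested.

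C5AR1, the receptor for C5a on neutrophils and macrophages, stood at 472, 442, 137, 389 and 420 in the pBTSC libraries and at 421, 739, 1054 and 271 in S4, S9, S13 and S19. The values overlapped (log2 fold change -0.67, SE 0.48, adjusted p = 0.28). Against CD45-/EpCAM- cells, at 1813 in S5 and 1068 in S14, it was lower in pBTSCs (-2.02, SE 0.59, adjusted p = 0.0096), but not without S5 (-1.64, adjusted p = 0.139). The summed level of 5 granulocyte genes was from 13322 to 64170 in these 2 libraries and from 214 to 7166 in pBTSCs, and its part in the result was not tested.

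The pentraxins, ring-shaped proteins that bind microbial surfaces and C1q, split into short and long members. The short pentraxins CRP, C-reactive protein, and APCS, serum amyloid P component, were lower in pBTSCs, and the long pentraxin PTX3, which many cells of the vessel wall and stroma release, was higher. APCS stood at 0.681, 2.32 and 0 in the H2B-GFP animals, at 0 in wild-type animal 1 and at 7.19 in wild-type animal 2, against 39176, 7130, 1697 and 100 in S4, S9, S13 and S19. The groups did not overlap, yet the liver values themselves spread widely, and the log2 fold change of -10.26 (SE 1.63, adjusted p = 9.7e-05) had the largest standard error of the 35 genes in this comparison. Within S2 to S14 the difference was -12.10 and within S15 to S23 it was -5.14. Against CD31+ and CD146+ cells it was -6.94 (SE 1.63, adjusted p = 0.0036), and -5.79 (adjusted p = 0.0523) without the 3 libraries under 2000000 reads.

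CRP stood at 7.29, 9.35, 3.86, 0 and 55.5 in the pBTSC libraries and at 3062, 2355, 338 and 399 in S4, S9, S13 and S19, a log2 fold change of -7.05 (SE 1.14, adjusted p = 0.00012). RefSeq lists 2 protein-coding genes of this symbol, which could share reads. PTX3 stood at 321, 2039, 199, 368 and 295 in pBTSCs and at 89.5, 149, 130 and 90.4 in those liver libraries. H2B-GFP animal 2 was far above the other 4 pBTSC libraries, and the lowest, H2B-GFP animal 3, was still above all 4 CD45-/EpCAM+ libraries (1.92, SE 0.51, adjusted p = 0.0067). S5, at 339, lay among the pBTSC values, and against CD45-/EpCAM- cells PTX3 was not called (1.18, SE 0.64, adjusted p = 0.13), except with libraries rescaled to the same total (1.66, adjusted p = 0.0362). Against CD31+ and CD146+ cells it was called (1.95, SE 0.51, adjusted p = 0.0078), but not without S16 to S19 (1.92, adjusted p = 0.0513) or with array weights (1.74, adjusted p = 0.0764).

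A list of 24 other complement and pattern-recognition genes was read in the same fit, of which 17 had a row and 16 were tested. Against CD45-/EpCAM+ cells 11 were lower in pBTSCs and 2 were higher. LBP, which binds bacterial lipopolysaccharide (-8.97, SE 0.82, adjusted p = 3e-07), MBL1, the other mannose-binding lectin (-8.58, SE 1.01, adjusted p = 4.4e-06), CPB2, a carboxypeptidase that also inactivates anaphylatoxins (-7.43, SE 0.72, adjusted p = 5.3e-07), and VTN, vitronectin, a soluble inhibitor of the terminal complex (-6.08, SE 0.45, adjusted p = 3.4e-08), fell the most. C4BPB, the beta chain of C4b-binding protein, was at -5.18 (SE 0.36, adjusted p = 2.1e-08) where C4BPA was at -1.67. The 2 higher genes were CR2, the C3d receptor of B cells and follicular dendritic cells (4.88, SE 0.86, adjusted p = 0.00025), and SUSD4, a membrane regulator (2.67, SE 0.79, adjusted p = 0.013). The summed level of 8 lymphocyte genes was from 545 to 1419 in pBTSCs. In liver libraries it was from 104 in the shallow S22 to 596 in S5, and its part in the CR2 result was not tested. CD93, C5AR2 and CSMD1 were not called. Against CD45-/EpCAM- cells 11 were lower and 2 higher, and against CD45+ cells, as against CD31+ and CD146+ cells, 11 were lower and 1 was higher.

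In the 2 comparisons made between liver sorts, no complement gene was called. The CD31+ and CD146+ sorts were not compared with other liver sorts. Of the 35 genes, 0 were called between CD45+ and CD45-/EpCAM+ cells by limma and 0 had an unadjusted p under 0.05, where 0 of all 15576 genes were called (0%) and 214 had an unadjusted p under 0.05. Between CD45-/EpCAM+ and CD45-/EpCAM- cells 0 of the 35 were called and 2 had an unadjusted p under 0.05, where 2.8% of all genes were called, 2.03% higher and 0.77% lower in CD45-/EpCAM+ cells, 436 genes in number. The smallest adjusted p was 0.17, for C7 (0.81, SE 0.34). These 2 comparisons share the CD45-/EpCAM+ libraries, and a p that misses the threshold does not show that the sorts are alike.

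The liver libraries did differ by library number, and this is given as a description with no test because the numbers are no group of the study. Of the 35 genes, 7 were higher in every library from S16 to S23 than in every library from S3 to S14 (all genes: 7.06%) and 2 were lower (all genes: 7.97%). MBL2 was from 17.4 to 85.2 in the 8 libraries S3 to S14 and from 344 to 677 in the 7 libraries S16 to S23, a difference of 3.79 between mean log2 values. C2 differed by 2.75, C1S by 2.05, C1R by 1.75, CLU by 1.45, CFI by 1.10 and MASP2 by 0.98, also with no overlap. These 7 belong to several routes, the classical pathway, the lectin pathway and the soluble regulators, and C1R and C1S lie side by side in the genome with no protein-coding gene between them.

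APCS and CFD were the 2 genes lower in S16 to S23. APCS differed by run: 22198 to 43312 in S3 to S5, 6866 and 7130 in S8 and S9, 1250 to 2876 in S12 to S14, 82.1 to 100 in S16 to S19, and 552 to 939 in S21 to S23. Each run kept to a narrow band although the sorts within it had different labels. CRP, which lies near APCS in the genome with 2 protein-coding genes between them, did not follow it, with 307 to 436 in S16 to S19 and 338 to 600 in S12 to S14 against 2986 to 4160 in S21 to S23, 1755 to 3062 in S3 to S5, and 2355 and 2483 in S8 and S9. The ratio of CRP to APCS within a library was from 0.0628 to 0.362 in S3 to S14 and from 3.74 to 5.51 in S16 to S23. The summed hepatocyte genes were from 1180440 to 2965240 in S3 to S14 and from 2184370 to 3035990 in S16 to S23, overlapping, and their part in these differences was not tested.

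**Figure D4:**
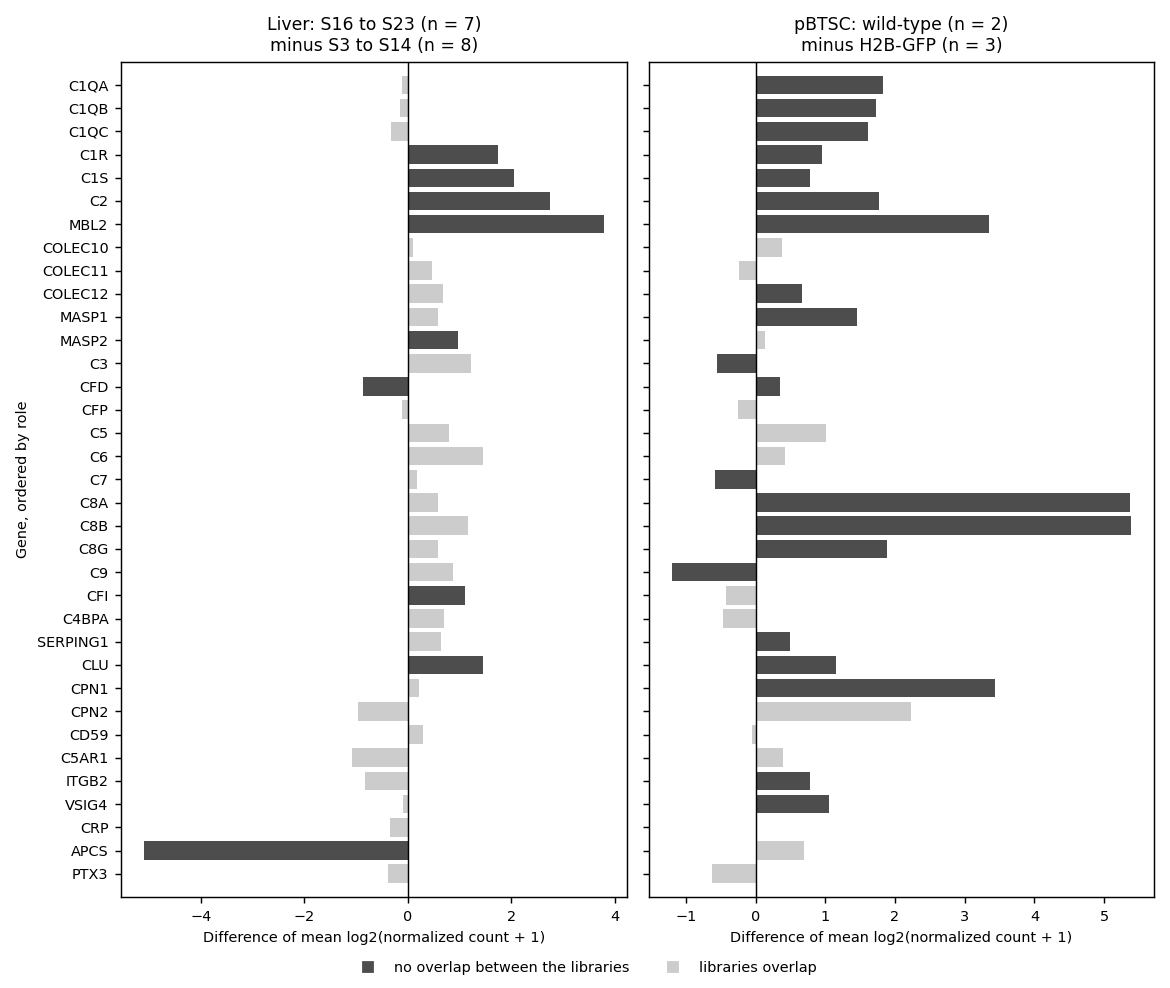
Difference of mean log2(normalized count + 1) (horizontal axes) of each gene (vertical axis, ordered by role) between liver libraries S16 to S23 and S3 to S14 (left) and between wild-type and H2B-GFP pBTSCs (right). Dark bars are genes whose libraries did not overlap, 9 on the left, with MBL2 at 3.79 and APCS at -5.10 at the ends, and 21 on the right, with C8A at 5.38, C8B at 5.39 and C9 at -1.20 at the ends.

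Among the pBTSC libraries, 18 of the 35 genes were higher in both wild-type animals than in all 3 H2B-GFP animals (all genes: 19.3%) and 3 were lower (all genes: 18%), which is given as a description because the line comes from the study's tables and not from the labels. C8B (5.39), C8A (5.38), CPN1 (3.43) and MBL2 (3.35) differed most in mean log2 values, although the values of CPN1 and MBL2 in wild-type animal 1 were under 3 reads. C8G (1.89), the C1q chains (1.62 to 1.83), C2 (1.77), MASP1 (1.46), CLU (1.16) and VSIG4 (1.06) were also higher in wild-type animals. C9 (-1.20), C7 (-0.58) and C3 (-0.55) were higher in H2B-GFP animals, so the terminal components did not all move one way. ALB, the gene of albumin, was from 287 to 376 in H2B-GFP animals and at 19832 and 25087 in wild-type animals, the summed hepatocyte genes were from 26529 to 30059 and from 58847 to 80104, and the summed macrophage genes from 4023 to 6134 and from 8291 to 8740. Their part in these differences was not tested. The study's list of RNA quality gives a lower RNA integrity number for all 3 H2B-GFP animals than for wild-type animal 2. It gives none for wild-type animal 1 and does not list the liver libraries, so RNA quality cannot be set beside the comparisons with liver. RNA quality thus ran with line where it is known, and its part was not tested either.

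Genes whose products form 1 complex were compared by their ratio within each library, which is set against the same ratio in other libraries and is not a ratio of molecules, because transcript lengths differ. The 3 C1q chains lie next to each other in the genome, and the ratio of C1QA to C1QB was from 0.954 to 1.11 in the 15 liver libraries while the level of C1QA itself ranged from 6398 to 31709. In pBTSCs the ratio was from 0.690 to 0.790, below every liver library. The part of RNA quality, which the study does not list for the liver libraries, was not tested. The C1q chains peaked in S12, S13 and S14, at 31709, 27663 and 21154 for C1QA, as did CFP, ITGB2 and the summed macrophage genes. The sum of the 3 chains was from 0.773 to 1.08 times the sum of the macrophage genes in liver libraries, 0.757, 0.410 and 0.716 times in H2B-GFP animals 1, 2 and 3, and 1.20 and 1.16 times in wild-type animals 1 and 2. The H2B-GFP animals thus lay below every liver library in this ratio and the wild-type animals above. LYZ is in the macrophage sum and was called higher in pBTSCs than in CD45-/EpCAM+ cells, where the others were lower.

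C8A and C8B, which also lie side by side, had a ratio of 3.30 in S8 and 3.26 in S9 and from 0.796 to 1.49 in the other 13 liver libraries. S8 is labelled CD45+ and S9 CD45-/EpCAM+. In both, C8B was low, at 2606 and 2856, while C8A, at 8592 and 9315, lay near its median of 9645 over the liver libraries. In the 2 wild-type animals, where both genes were above 100 normalized counts, the ratio was 0.836 and 0.825. CPN1 and CPN2 were not held to 1 ratio either, with CPN1 at 0.225 to 1.29 times CPN2 across the liver libraries. This ratio differed by run. It was 0.225 to 0.302 in S3 to S5, 0.391 and 0.433 in S8 and S9, and 0.841 to 1.29 in S12 to S14. In S16 to S19 it was 1.17 to 1.22, and in S21 to S23 it was 0.963 to 1.03.

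**Figure D5:**
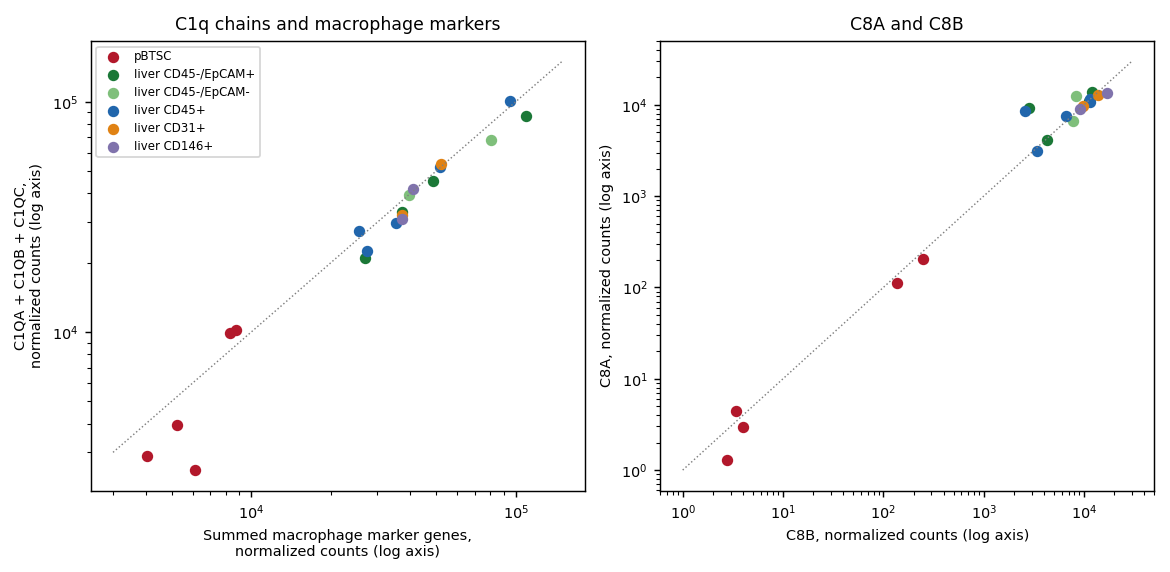
Left: summed C1QA, C1QB and C1QC (vertical axis) against the sum of 7 macrophage genes (horizontal axis), 1 point per library, both as normalized counts on log axes. Right: C8A (vertical axis) against C8B (horizontal axis), likewise. Dotted lines mark equal values. On the left, liver points lie on both sides of the line, at 0.773 to 1.08 times the macrophage sum. The 3 H2B-GFP points lie below it, at 0.410 to 0.757 times, and the 2 wild-type points above it, at 1.16 and 1.20 times. On the right, S8 and S9 stand above the line at C8B levels of 2606 and 2856.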

How the data were processed

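RNA of sorted pig cells was purified with a Qiagen RNeasy kit and sequenced from poly(A) libraries of an Illumina TruSeq Stranded mRNA kit, per the labels. The authors deposited a single table of 20 libraries that holds a signal per gene, the normalized count, which is never below 0. The submitters' processing notes name STAR, Salmon and DESeq2. Their versions, the genome build and the annotation are not given in the sources used here, so no coordinates are printed. Scaling the deposited values again by the median of ratios left them practically unchanged. The counts of calls therefore could not move, and this is no separate check.

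Groups were taken from the labels and piglet lines from the study's tables. The value of 1 read was estimated from low values. Only 43.9% to 79.5% of them came within 0.05 of a multiple of it, so reads were not recovered and count tests were not run. The deposited values were taken to log2(normalized count + 1). The test was limma 3.58.1 under R 4.3.3 (lmFit and trended eBayes) in a joint fit of the 6 groups. It covered the 15576 genes that reached 10 normalized counts in 2 or more libraries, with Benjamini-Hochberg adjustment over all of them. Calls needed an adjusted p-value below 0.05 together with a log2 fold change beyond 1 in size, as in the study. Adding 1 makes fold changes of low genes smaller, whereas a 0 at shallow depth can make them larger. The fit was also tried on simulated libraries drawn independently of each other. Those held no runs of numbers, so they cannot show how the fit behaves where libraries resemble each other by run. Python 3.11.15 with numpy 2.4.6, pandas 2.3.3 and matplotlib 3.10.9 was used for summaries and figures.

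The genes, roles, marker lists and library ranges were chosen with earlier results of these data known. All members with a row may be named, with values per library for the called members of largest log2 fold change in each role and those that run against their role. The alternatives were other pseudocounts, filters, scalings, weights, fits and covariates, and each library left out in turn. Gene names were matched to the RefSeq gene table of Sscrofa11.1, where all 41 were found. Sequences were not used here.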

Additional observations from a re-analysis of the deposited data

Results flagged for a closer look

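In 105 tests of the 35 genes in the 3 groups of 4 or more libraries, 9 had a library whose distance from the nearest other was large for the range of its group, and chance gives about 1 in 20. In pBTSCs these were H2B-GFP animal 2 for CD59, at 6378 against 3697 to 4375 in the other libraries, and for PTX3, at 2039 against 199 to 368, wild-type animal 2 for CPN2, at 47.9 against 0 to 1.29, and for CRP, at 55.5 against 0 to 9.35, and H2B-GFP animal 3 for C5AR1, at 137 against 389 to 472. In wild-type animal 1 a value of 0 for CPN2 or CRP allows up to 37.6. In CD45-/EpCAM+ liver cells S19 stood apart for C2, at 6245 against 741 to 1671, and for MBL2, at 529 against 24.1 to 51.4. S19 is the only CD45-/EpCAM+ library numbered above S14, and all 7 liver libraries from S16 to S23 were high in both genes. In CD45+ liver cells S12 stood apart for ITGB2, at 5175 against 1093 to 1794, and S23 for PTX3, at 77.2 against 120 to 127.

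The pBTSC minus CD45-/EpCAM+ difference of C7 was 0.74 within S2 to S14, with every pBTSC library above, and -0.29 within S15 to S23, with both pBTSC libraries below S19, a difference that was not tested.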

How the results depend on the processing

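The number of the 35 genes called stayed within 1.5 times in all 6 comparisons under every alternative run. Leaving out single libraries gave 31 against CD45-/EpCAM+ cells each time, 26 to 31 against CD45-/EpCAM- cells, 30 to 31 against CD45+ cells, 30 to 31 against CD31+ and CD146+ cells, and 0 in both comparisons between liver sorts. Of 2733 alternative values for 132 named results, 2676 kept their direction and their side of the threshold. These include the values scaled again by the median of ratios, which could not change. Direction changed only for C1S against both CD45- sorts and for C1R against CD45-/EpCAM- cells, none of them called in the reported fit. C1S against CD45-/EpCAM+ cells became 0.17 with libraries rescaled to the same total, 0.39 without S16 to S19, and -0.54 to 0.39 with single libraries left out, above 0 without S19 (0.39) and without H2B-GFP animal 1 (0.00327). C1S against CD45-/EpCAM- cells, at 0.26, became -0.39 with the range of library numbers as a covariate, -0.52 with the runs of numbers, and -0.0839 without S14 to 0.60 without S5. C1R against CD45-/EpCAM- cells, at -0.34, became 0.14 with the same total, -1.07 with the runs of numbers (adjusted p = 0.0111, a call), and -0.74 without S14 to 0.0623 without S5. The cause was not tested. The fits with runs of numbers and without S16 to S19 were chosen after seeing the data.

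Rescaling to the same total moved the median of all genes against CD45-/EpCAM+ cells from 0.08 to 0.39 and the calls over all genes from 2302 higher and 1603 lower to 3308 and 1237, with 4 higher and 27 lower among the 35 genes in both. Against CD45-/EpCAM- cells it moved them from 3114 and 2584 to 4643 and 1506, and the 35 genes from 3 and 28 to 5 and 25. Against CD45+ cells it moved them from 1716 and 1486 to 2434 and 1195, and against CD31+ and CD146+ cells from 1963 and 1363 to 2900 and 1132. Between CD45-/EpCAM+ and CD45-/EpCAM- cells the 436 calls over all genes became 0 with only those groups in the fit, 5 without S16 to S19, 39 with array weights, 718 with the same total and 879 without the 3 libraries under 2000000 reads. The labels give neither donors nor replicate numbers, so the reported fit is not paired. In the fit blocked on runs of library numbers, each run also holds 1 pBTSC library. That fit is one by animal only if a run shares an animal, which the labels do not say. The run fit called 31, 33, 31 and 30 genes against the 4 liver sorts in the order above. Shallow depth in wild-type animal 1, S13 and S22 limits what can be said of low genes there.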
